A study of Mus musculus with 36 samples.

Results

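The Rescue keratinocytes of this study were compared between 72 h and 24 h of culture in low calcium medium (LCM), which uses 6 of the 36 poly(A) RNA libraries, 3 for each time. The members were taken from the sample labels and column names alone, not from measured values. Rescue cells were Pkp4-knockout keratinocytes (PKP4-KO, from mice on a C57BL/6J background in which Pkp4 exon 9 had been removed) that carried a lentiviral EGFP-tagged human PKP4 and had been selected with puromycin to give a stable line. Both times share the knockout allele, the transgene, the selection and the medium. The sample titles also carry the tag HD at 72 h and LD at 24 h, which the study's text does not explain. Apart from this tag, culture time is the only labelled difference, and anything the tag stands for cannot be told apart from time. The other groups used beside it were untransduced PKP4-KO cells and wild-type (WT) cells in LCM, and Rescue cells in high calcium medium (HCM, which is LCM with calcium added), each at 72 h and 24 h with 3 libraries a time. The cells came from the epidermis of newborn pups. Transduction and selection differ between the Rescue cells and the other genotypes together with PKP4 itself and cannot be told apart from it. The series gives the 3 libraries of a condition as biological replicates, without saying whether they were separate cultures or animals, so the p-values measure a spread between libraries. In the main fit this spread within groups was estimated from all 36 libraries together, not from the 6 compared alone.

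Keratinocytes divide on the basement membrane through integrins and laminins. When they leave it they stop dividing, exchange basal for suprabasal keratins, strengthen desmosomes with differentiation-specific cadherins, and end as corneocytes whose small proline-rich and late cornified envelope proteins are cross-linked by transglutaminases and coated with ceramides. Kallikrein proteases later cut the desmosomes so that corneocytes can be shed. Calcium is the usual trigger in culture, and low calcium medium is used to hold the cells back. Growth to a crowded layer can start parts of the same program without added calcium.

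The 6 libraries held 14799229 to 22467187 assigned counts per library, and 15114 genes entered the test. Levels are given as CPM, the usual counts per unit of library size, after TMM scaling of the library sizes. The libraries did not behave alike. The second 72 h library and the third 24 h library stood apart from the others of their group. The standard deviation of a gene's log2 level around its group mean was 0.65 and 0.54 in these libraries, against 0.335 to 0.475 in the other 4 and a median of 0.378 over all 36. In the shortest 20% of genes (55 to 1654 bases) their median deviation was 0.54 and 0.42, and in the longest 20% (7003 to 123179 bases) it was −0.30 and −0.23. The first 72 h library leaned the other way, with −0.42 and 0.27. The time effect itself had a median log2 of 0.05 in the shortest and −0.11 in the longest 20%. Gapdh, a short and usually steady transcript, had 44.8, 683 and 57.2 CPM at 72 h against 44.3, 48.8 and 219.7 CPM at 24 h, so its high values fell in the libraries that stood apart and not with a time. The part that this length-related spread plays in each result was not tested, and the counts of the gene lists for culture time are therefore also given without both of these libraries where they change by more than 1.5 times.

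Mouse Pkp4 was counted over the whole gene, which does not show where in it the reads lie and so does not check the removal of the exon. It did not separate the times, with 10, 7.44 and 9.13 CPM at 72 h against 8.19, 9.27 and 9.95 CPM at 24 h. The means were 8.86 ± 1.30 and 9.14 ± 0.886 CPM (SD, n = 3 each), with p = 0.7 in a two-sided exact permutation test, for which 0.1 is the smallest p that 3 against 3 libraries allow. The transgene, counted as a separate GFP-PKP4 sequence, had 562, 332 and 336 CPM at 72 h against 269, 291 and 124 CPM at 24 h. After TMM scaling all 3 libraries of 72 h lay above those of 24 h, as in 12.9% of all tested genes. The transgene means were 410 ± 131 against 228 ± 90.6 CPM (SD, n = 3 each), and the exact permutation p was 0.1, the smallest possible. With plain library sizes (no TMM scaling) the permutation p was 0.4. It was 0.2 without the first 72 h library, 0.3 without the third 24 h library and 0.1 without any other single library. In the fit over all genes the transgene's log2 change was 0.84 (SE 0.73, adjusted p = 0.617) and so did not pass. Every library of both times thus carried the transgene, and its level at 24 h ranged more than 2-fold.

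Culture time changed 1482 genes (9.81%). At 72 h 1034 genes were higher and 448 lower than at 24 h at an adjusted p of 0.05 (edgeR quasi-likelihood test, Benjamini-Hochberg over the 15114 genes), which is 6.84% and 2.96% of those tested. More than 2-fold changes were also uneven, with 648 higher and 125 lower, and 330 genes rose but 22 fell by more than 4-fold. The median log2 change over all genes was −0.03. Without both libraries that stood apart 709 genes were higher and 160 lower, and with only the 6 libraries in the fit 634 were higher and 104 lower.

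The 12 protein-coding genes with the largest rises, among those at 5 CPM or more whose libraries did not overlap, held 5 kallikreins and several enzymes and inhibitors of the upper epidermis. Degs2, which makes the phytoceramides of the skin barrier (chr12:108644970-108668586, GRCm39), had 8.87, 15.5 and 11.5 CPM at 72 h against 0.546, 0.497 and 0.524 CPM at 24 h. It was close to 0.5 CPM in every 24 h library and at least 8.87 CPM in every 72 h library, a log2 change of 4.50 (SE 0.60, adjusted p = 2.72e-06). Pla2g4d, an epidermal phospholipase, had 11.5, 8.84 and 10.2 CPM at 72 h against 0.273, 0.372 and 0.785 CPM at 24 h, with a log2 change of 4.45 (SE 0.50, adjusted p = 1.44e-07). Nccrp1, an F-box-type protein of squamous epithelia, rose from between 1.77 and 2.68 CPM to between 28.2 and 45.1 CPM. Spink7, an esophageal and epidermal inhibitor of kallikrein-type proteases, had 21.7, 88.2 and 37.2 CPM at 72 h against 3.96, 4.30 and 4.32 CPM at 24 h; its log2 change of 3.54 became 2.81 without the second 72 h library. Ndufa4l2, a hypoxia-inducible mitochondrial protein, had 5.42, 20.5 and 6.35 CPM at 72 h against 0.410, 0.455 and 2.09 CPM at 24 h, and its log2 change of 3.54 was 2.69 without the second 72 h and 4.59 without the third 24 h library. The 12 largest falls were smaller. Fas, the death receptor, had 1.47, 1.40 and 2.20 CPM at 72 h against 10.01, 7.24 and 9.29 CPM at 24 h, a log2 change of −2.38 (SE 0.23, adjusted p = 7.98e-09). Krt42, a type I keratin, had 16.9, 17.2 and 17.7 CPM at 72 h against 73.1, 69.5 and 79.01 CPM at 24 h, a log2 change of −2.10 (SE 0.18, adjusted p = 9.08e-10). Both genes stayed within a narrow range inside each time. The other falls included Slco2a1, a prostaglandin transporter (−1.84), Igfbp2, a carrier of insulin-like growth factors (−1.59), Ptn, the growth factor pleiotrophin (−1.60), Pltp, a phospholipid transfer protein (−1.49), and the cell-surface protein Flrt2 (−1.50).

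**Figure D1:**
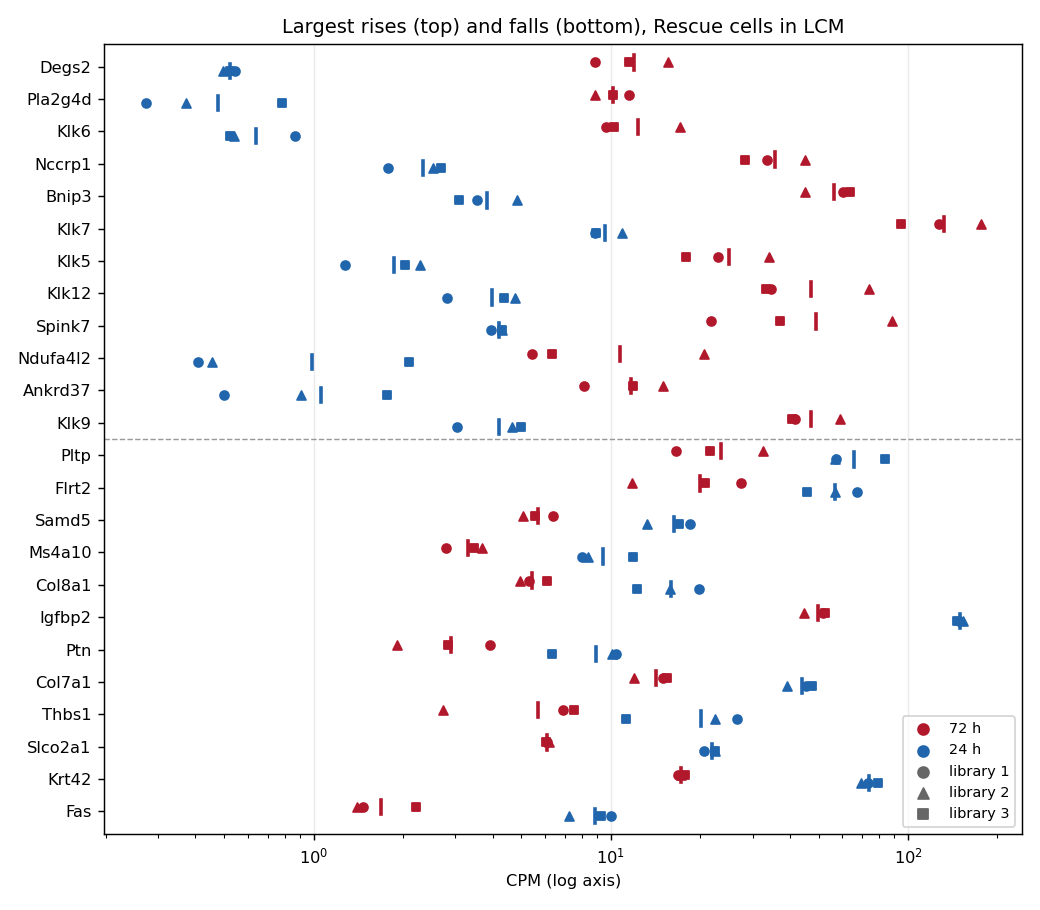
CPM on a log axis in each of the 6 Rescue LCM libraries (colour gives the time, marker shape the library number, short vertical bars the means of 3) for the 12 largest rises above the dashed line and the 12 largest falls below it. The times do not overlap for any of the 24 genes, as their selection required, and the rises span a wider range (log2 3.49 to 4.50) than the falls (−1.49 to −2.38).

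The genes of the cornified envelope, the insoluble shell of the corneocyte, were the list that moved most. Of 27 tested members 22 were higher and 0 lower at 72 h, against 6.84% higher over all genes, and the median log2 change was 2.66 against −0.03. Their summed level was 3847 to 5733 CPM in the 24 h libraries and 13120 to 30080 CPM in the 72 h libraries, the highest value being that of the second 72 h library. For several members at the core of this group the 250 bases upstream of the start are shown, because AP-1, a factor made of Fos and Jun proteins, is known to act in the promoters of small proline-rich genes. Capitals mark the letters TGANTCA on either strand. The windows come from RefSeq on GRCm38.p6, 5′ to 3′ on the strand of the gene.
Sprr1a (chr3:92485882-92486131, minus strand): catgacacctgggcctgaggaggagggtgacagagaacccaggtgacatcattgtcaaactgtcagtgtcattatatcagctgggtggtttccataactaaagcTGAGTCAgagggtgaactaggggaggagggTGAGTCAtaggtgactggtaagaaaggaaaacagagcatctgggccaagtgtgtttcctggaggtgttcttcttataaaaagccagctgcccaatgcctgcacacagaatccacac
Sprr1b (chr3:92438780-92439029, minus strand): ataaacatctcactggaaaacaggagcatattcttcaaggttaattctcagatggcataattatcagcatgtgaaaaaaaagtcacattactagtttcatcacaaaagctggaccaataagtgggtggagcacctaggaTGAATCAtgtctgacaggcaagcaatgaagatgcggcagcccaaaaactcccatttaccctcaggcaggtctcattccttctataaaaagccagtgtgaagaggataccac
Sbsn (chr7:30751221-30751470, plus strand): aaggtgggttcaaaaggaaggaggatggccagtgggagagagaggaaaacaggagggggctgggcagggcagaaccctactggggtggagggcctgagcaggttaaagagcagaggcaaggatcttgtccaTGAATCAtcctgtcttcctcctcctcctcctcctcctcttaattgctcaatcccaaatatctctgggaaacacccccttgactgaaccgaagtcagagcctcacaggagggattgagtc
Sprr1a held 2 matches, the nearer 110 bases before the start, and Sprr1b and Sbsn held 1 each, 105 and 113 bases before it. Each window shown thus held the letters, whereas the same stretch of other members, among them Sprr3, Casp14, Tgm1, Tgm3 and Tgm5, held none. Within 250 bases before to 50 bases after the start, 10 of 23 members with a window held the letters (43.5%), and 8 of the 19 that rose (42.1%). Of all 10401 tested genes with a window 6.8% held them. A match describes the letters only and shows no binding.

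Sprr1a, a small proline-rich envelope protein, had 3329, 8246 and 4188 CPM at 72 h against 649, 768 and 796 CPM at 24 h, a log2 change of 2.83 (SE 0.34, adjusted p = 4.25e-07). Its neighbour Sprr1b had 1974, 5411 and 2415 CPM at 72 h against 644, 725 and 1239 CPM at 24 h and a log2 change of 1.91 (SE 0.40, adjusted p = 0.00132). Sbsn (suprabasin) had 847, 2181 and 1002 CPM at 72 h against 259, 302 and 415 CPM at 24 h, with 2.05 (SE 0.36, adjusted p = 0.000155). In all 3 genes the second 72 h library was the highest by about 2-fold, and the other 72 h libraries still lay above every 24 h library. Casp14, the protease that processes filaggrin, did not lean on that library, with 78.2, 69.2 and 64.9 CPM at 72 h against 8.60, 9.89 and 4.97 CPM at 24 h and a log2 change of 3.17 (SE 0.21, adjusted p = 2.63e-11). Loricrin, the main protein of the mouse envelope, had 66, 66.1 and 55.6 CPM at 72 h against 10.9, 12.4 and 3.99 CPM at 24 h, a log2 change of 2.77 (SE 0.37, adjusted p = 3.5e-06). The cross-linking enzymes rose together. Tgm1 had 342, 427 and 349 CPM at 72 h against 90.9, 102 and 104 CPM at 24 h, Tgm3 had 1026, 999.8 and 1085 CPM at 72 h against 243, 278 and 186 CPM at 24 h, and Tgm5 had 54.2, 47.9 and 47.8 CPM at 72 h against 8.10, 10.97 and 9.16 CPM at 24 h, with log2 changes of 1.91, 2.14 and 2.41. Cdsn, the corneodesmosin that seals corneocytes to each other, went from 67.7 to 89.7 CPM up to 428 to 556 CPM. The largest fold changes of called members were those of genes with low levels, Lce1a1 (3.44), Lce1a2 (3.38), Calml3 (3.36) and Lce1b (3.28). Flg, the filaggrin gene, was barely read, with 0.696, 0.957 and 0.315 CPM at 72 h against 0.137, 0 and 0.131 CPM at 24 h, and Flg2 had 0 counts in all 6 libraries. Ivl (involucrin) and Ppl (periplakin) missed the threshold, with log2 changes of 0.78 (SE 0.27, adjusted p = 0.0643) and 0.78 (SE 0.27, adjusted p = 0.0617), and passed without the second 72 h library (adjusted p = 0.0462 and 0.0329). Krtdap had 436, 2793 and 751 CPM at 72 h against 452, 487 and 1208 CPM at 24 h (log2 0.89, SE 0.69, adjusted p = 0.555). The highest value of each time belonged to a library that stood apart, and without the second 72 h library the log2 change was −0.27. Without both of these libraries 20 members were higher.

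Many of these genes lie together in the epidermal differentiation complex. Between S100a1 and S100a10 (chr3:90418340-93474510, GRCm39) 70 genes were tested, of which 43 were higher and 0 lower, with a median log2 change of 2.20. Without both libraries that stood apart 36 were higher. The kallikrein genes lie on chr7:43339842-43879048, a stretch of 11 tested genes. All 10 tested kallikreins (Klk5 to Klk14) were higher at 72 h. Both stretches were chosen after their values had been seen, so these counts describe them only. Klk7, a chymotrypsin-like protease of the stratum corneum, had 127, 176 and 94.8 CPM at 72 h against 8.87, 10.9 and 8.90 CPM at 24 h, a log2 change of 3.79 (SE 0.32, adjusted p = 1.17e-09). Klk5, which activates other kallikreins, had 22.9, 33.9 and 17.9 CPM at 72 h against 1.27, 2.28 and 2.03 CPM at 24 h, a log2 change of 3.74 (SE 0.37, adjusted p = 2.17e-08). Klk6 had 9.60, 17.1 and 10.2 CPM at 72 h against 0.865, 0.538 and 0.524 CPM at 24 h, with 4.22 (SE 0.52, adjusted p = 6.65e-07). The log2 changes of Klk14 and Klk10 were 4.14 (SE 0.30, adjusted p = 6.23e-11) and 2.00 (SE 0.16, adjusted p = 2.31e-10). Klk8 changed least, with 271, 589 and 347 CPM at 72 h against 172, 193 and 268 CPM at 24 h and a log2 change of 0.93 (SE 0.29, adjusted p = 0.0401). It lost its call without the second 72 h library (0.55, adjusted p = 0.321) and without the first or second 24 h library (0.80 and 0.87, adjusted p = 0.184 and 0.142), and with only the 6 libraries in the fit (adjusted p = 0.221). Without both libraries that stood apart 9 kallikreins were higher. Spink5, the inhibitor LEKTI that restrains Klk5 and Klk7, had 127, 41.5 and 86.96 CPM at 72 h against 72.6, 64.7 and 28.7 CPM at 24 h and overlapped between the times (log2 0.62, SE 0.42, adjusted p = 0.457).

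Enzymes that build the lipid barrier rose as well, 13 of 18 members being higher and 0 lower, with a median log2 change of 1.56. Their summed level was 408 to 523 CPM at 24 h and 1233 to 1390 CPM at 72 h. Genes of the lipoxygenase route were among them. Alox12b, the lipoxygenase that oxidises the acylceramide, had 134, 184 and 123 CPM at 72 h against 16.9, 20.5 and 12.2 CPM at 24 h, a log2 change of 3.15 (SE 0.29, adjusted p = 3.71e-09). Its partner Aloxe3 had 80.1, 85.3 and 79.04 CPM at 72 h against 13.5, 15.1 and 10.6 CPM at 24 h, with 2.64 (SE 0.21, adjusted p = 3.08e-10). Pnpla1, which transfers linoleate to the ceramide, had 77.03, 82.99 and 61.8 CPM at 72 h against 9.33, 12.3 and 9.62 CPM at 24 h, with 2.82 (SE 0.22, adjusted p = 1.67e-10). Cyp4f39, the hydroxylase of very long chain fatty acids, had 71.7, 82.9 and 61.3 CPM at 72 h against 11.3, 12.2 and 8.71 CPM at 24 h, with 2.74 (SE 0.19, adjusted p = 3.98e-11). Among the others, the ceramidase Acer1 (2.69), the sphingomyelinase Smpd1 (2.02), and the elongase Elovl4 (1.77) passed. Abca12, which loads lipids into lamellar granules, had 101, 55.3 and 66.1 CPM at 72 h against 50.8, 55.1 and 32.6 CPM at 24 h and did not pass (log2 0.69, SE 0.27, adjusted p = 0.13). Only 1 of 15 members with a window held TGANTCA (6.7%), close to the 6.8% of all genes.

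The keratins did not follow one pattern. In the list of suprabasal and simple-epithelium keratins 6 of 12 were higher and 0 lower, with a median log2 change of 1.05, and 4 were higher without both libraries that stood apart. Krt23, a keratin of simple and stressed epithelia, had 127, 129 and 126 CPM at 72 h against 14.8, 14.6 and 9.03 CPM at 24 h, a log2 change of 3.31 (SE 0.33, adjusted p = 2.58e-08). Krt78 had 402, 632 and 372 CPM at 72 h against 65.6, 75.7 and 78.8 CPM at 24 h, with 2.68 (SE 0.35, adjusted p = 2.26e-06). Krt80 had 375, 403 and 334 CPM at 72 h against 60.8, 66.2 and 58.4 CPM at 24 h, with 2.58 (SE 0.17, adjusted p = 2.63e-11). Krt1 and Krt10, the pair that defines spinous keratinocytes in the skin, were not among them. Krt10 had 12.5, 14.2 and 11.4 CPM at 72 h against 6.96, 7.53 and 28.5 CPM at 24 h (log2 −0.17, SE 0.38, adjusted p = 0.898). Krt1 had 3.99, 3.09 and 3.31 CPM at 72 h against 2.32, 2.61 and 21.4 CPM at 24 h (log2 −1.31, SE 0.50, adjusted p = 0.105). For both, the third 24 h library was the highest of all 6. Without it the log2 changes were 0.80 and 0.49 (adjusted p = 0.166 and 0.415), whereas without the first or the second 24 h library Krt1 passed as lower (−1.77 and −1.75, adjusted p = 0.0132 and 0.017). Krt2 and Krt77 had 4 and 2 counts in all 6 libraries and were not tested. Of 7 basal and stress keratins 3 were higher and 0 lower. They were Krt6b (6122, 7973 and 7071 CPM at 72 h against 2134, 2382 and 2139 CPM at 24 h; log2 1.67, SE 0.19, adjusted p = 2.93e-07), Krt16 (log2 1.32, SE 0.16, adjusted p = 5.91e-07) and Krt6a (log2 0.67, SE 0.13, adjusted p = 0.00041), keratins of activated and wounded epidermis. Krt14 and Krt5, the basal pair, stayed at 18696, 20736 and 22775 CPM at 72 h against 17985, 19445 and 20326 CPM at 24 h and 12082, 15997 and 14108 CPM at 72 h against 13595, 14704 and 20556 CPM at 24 h, with log2 changes of 0.11 (SE 0.15, adjusted p = 0.805) and −0.21 (SE 0.18, adjusted p = 0.604).

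Transcription factors of the keratinocyte lineage were higher for 11 of 23 members and lower for 1 (0 without the third 72 h, the first 24 h or the second 24 h library), with a median log2 change of 0.53. Hopx, a homeodomain cofactor of differentiating cells, had 271, 294 and 244 CPM at 72 h against 40.4, 48.1 and 31.6 CPM at 24 h, a log2 change of 2.75 (SE 0.16, adjusted p = 1.62e-12). Grhl3, a grainyhead factor needed for barrier formation, had 158, 124 and 152 CPM at 72 h against 37.9, 43.1 and 25.6 CPM at 24 h, with 2.02 (SE 0.20, adjusted p = 1.63e-08). Ovol1, which restrains proliferation of epidermal progenitors, had 161, 176 and 165 CPM at 72 h against 45.5, 46.4 and 41.1 CPM at 24 h, with 1.92 (SE 0.16, adjusted p = 6.82e-10). Prdm1 (1.82), Cebpa (1.80), Grhl1 (1.58), Zfp750 (1.41) and Klf4 (1.05) rose as well. Trp63, the master factor of the basal state, had 199.8, 98.8 and 161 CPM at 72 h against 188, 173 and 110.3 CPM at 24 h and did not pass (log2 −0.04, SE 0.27, adjusted p = 0.984). The grainyhead letters AACNGGTT stood in 2 of 23 windows of the cornified envelope genes (8.7%) and in 2.2% of all windows.

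Of 12 desmosomal genes 6 were higher and 0 lower, with a median log2 change of 0.64. The cadherins of the upper layers rose most. Dsc1 had 54.2, 18.3 and 27.6 CPM at 72 h against 3.87, 5.71 and 0.982 CPM at 24 h, a log2 change of 3.22 (SE 0.61, adjusted p = 0.000383). Dsc2 had 33.5, 16.1 and 16.5 CPM at 72 h against 3.28, 3.89 and 1.51 CPM at 24 h, with 2.91 (SE 0.39, adjusted p = 3.21e-06). Dsg1b had 87.7, 40.6 and 48.6 CPM at 72 h against 13.5, 15.7 and 6.35 CPM at 24 h, with 2.31 (SE 0.36, adjusted p = 3.03e-05). The plakophilins Pkp1 (log2 0.70, SE 0.12, adjusted p = 6.5e-05) and Pkp3 (log2 0.82, SE 0.14, adjusted p = 8.94e-05) rose less. Dsg3 and Dsc3, the cadherins of basal cells, and the plaque gene Dsp did not pass. Without both libraries that stood apart 6 genes were higher. Among 19 tight and gap junction genes 5 were higher and 0 lower (3 without both libraries, and 3 without the third 24 h library alone). Gjb2, the connexin 26 gene, had 331, 408 and 352 CPM at 72 h against 53.6, 63.7 and 47 CPM at 24 h, a log2 change of 2.73 (SE 0.21, adjusted p = 2.31e-10). Cldn23 had 8.39, 9.28 and 8.87 CPM at 72 h against 1.50, 1.70 and 0.393 CPM at 24 h, with 2.83 (SE 0.32, adjusted p = 2.21e-07). Gjb6, connexin 30, had 10.1, 7.73 and 9.87 CPM at 72 h against 1.001, 0.911 and 0.196 CPM at 24 h; its log2 change of 3.67 had an adjusted p of 0.0507 (log2 3.26) when the third 24 h library was left out.

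The adherens junction genes, which the study was about, held few that passed. Of 17 adherens junction and nectin genes 2 were higher and 2 lower, and the median log2 change was −0.01. They were 1 and 0 without both libraries that stood apart. With only the 6 libraries in the fit 0 were higher and 1 lower. The higher count was 1 without the second 72 h, the first 24 h or the second 24 h library, and the lower count was 1 without any 1 library other than the first 72 h library. Cdh1, the E-cadherin gene, had 149.5, 103 and 121 CPM at 72 h against 108, 112 and 83.9 CPM at 24 h (log2 0.30, SE 0.18, adjusted p = 0.386). The catenin genes Ctnnb1, Ctnna1 and Ctnnd1 did not pass either. Shroom3, which recruits ROCK to the apical junction, had 123, 197 and 145 CPM at 72 h against 68.3, 82.03 and 86.4 CPM at 24 h, a log2 change of 0.98 (SE 0.16, adjusted p = 4.22e-05). Arvcf, a p120-family catenin, had 22.6, 19.4 and 23.1 CPM at 72 h against 34.2, 34.9 and 33.97 CPM at 24 h, a log2 change of −0.66 (SE 0.15, adjusted p = 0.00322), with an adjusted p of 0.0612 without both libraries that stood apart. Limk2, the LIM kinase that inactivates cofilin, had 503, 445 and 456 CPM at 72 h against 337, 344 and 312 CPM at 24 h, a log2 change of 0.50 (SE 0.11, adjusted p = 0.00285). Limk2 did not pass with plain library sizes (log2 0.39, adjusted p = 0.205) or with only the 6 libraries in the fit (adjusted p = 0.0716). Rhoa had 405, 369.5 and 432 CPM at 72 h against 355, 355 and 307 CPM at 24 h (log2 0.25, SE 0.10, adjusted p = 0.152). Arhgef2, an exchange factor for RhoA, had 84.2, 78.1 and 73.6 CPM at 72 h against 62.9, 65.7 and 48.6 CPM at 24 h (log2 0.41, SE 0.14, adjusted p = 0.0601). These genes passed by DESeq2, with adjusted p of 0.014 and 0.0143. Arhgap23 had 64.4, 53.4 and 60.5 CPM at 72 h against 57.98, 66.1 and 49.4 CPM at 24 h (log2 0.04, SE 0.14, adjusted p = 0.951). Rock1, a long transcript, had 9.05, 1.47 and 6.14 CPM at 72 h against 8.24, 7.78 and 4.32 CPM at 24 h (log2 −0.27, SE 0.52, adjusted p = 0.872), with its lowest values in the libraries that stood apart. Of 24 actin and serum response factor targets 1 was higher and 1 lower. Tpm1, a tropomyosin of stress fibres, had 287, 249 and 299 CPM at 72 h against 614, 549 and 660.3 CPM at 24 h, a log2 change of −1.13 (SE 0.15, adjusted p = 3.19e-06). Actg1 rose by 0.89 with all libraries and by 0.70 (adjusted p = 0.0531) without the third 24 h library.

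**Figure D2:**
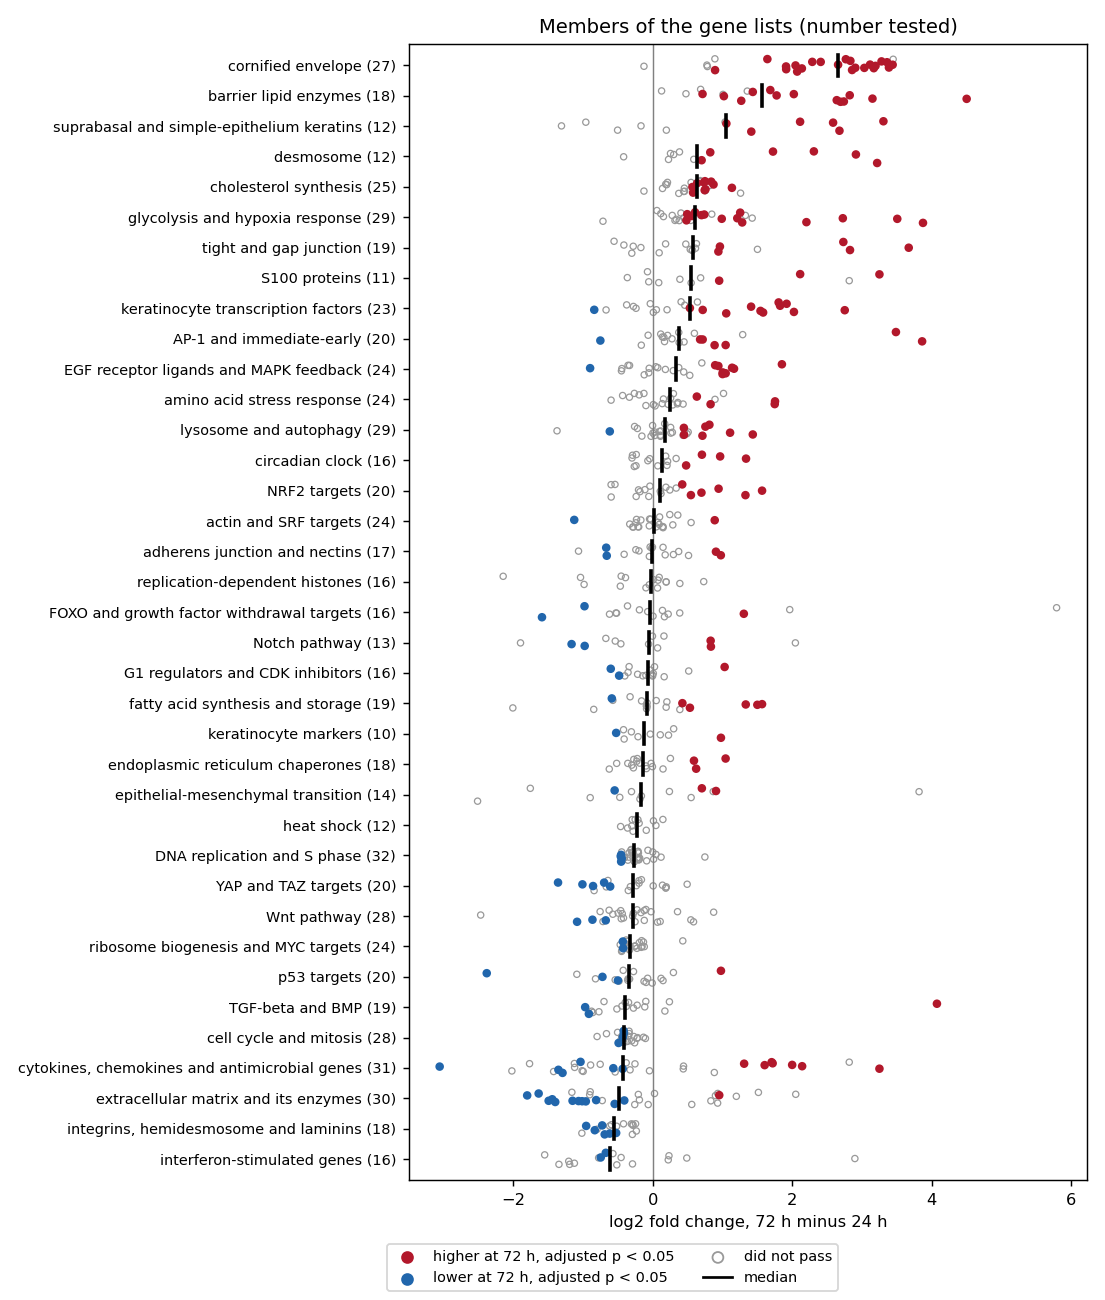
Log2 fold change (72 h minus 24 h, horizontal axis) of each tested member of the gene lists with 10 or more tested genes, ordered by their medians (black bars); filled points passed an adjusted p of 0.05 (red higher, blue lower) and open points did not. The cornified envelope and barrier lipid lists lie farthest to the right, with medians of 2.66 and 1.56, while medians of the falling lists reach no further than −0.62.

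Genes of glycolysis and the hypoxia response formed the next group. Of 29 members 14 were higher and 0 lower, with a median log2 change of 0.61, and 28 of the 29 estimates were above 0. Under plain library sizes 9 were higher, and with only the 6 libraries in the fit 9. The promoters of the most changed members are shown for the core letters of the hypoxia response element, ACGTG or GCGTG on either strand (CACGT and CACGC when read on the other strand). Of these, ACGTG also lies within the E-box CACGTG. Capitals mark the matches, and the windows are again the 250 bases before the start from RefSeq on GRCm38.p6.
Bnip3 (chr7:138909507-138909756, minus strand): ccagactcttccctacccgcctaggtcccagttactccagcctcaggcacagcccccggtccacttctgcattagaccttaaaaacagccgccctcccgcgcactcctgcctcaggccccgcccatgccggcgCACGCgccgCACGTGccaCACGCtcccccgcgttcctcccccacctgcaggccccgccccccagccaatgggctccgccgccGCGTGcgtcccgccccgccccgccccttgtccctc
Ankrd37 (chr8:45999851-46000100, minus strand): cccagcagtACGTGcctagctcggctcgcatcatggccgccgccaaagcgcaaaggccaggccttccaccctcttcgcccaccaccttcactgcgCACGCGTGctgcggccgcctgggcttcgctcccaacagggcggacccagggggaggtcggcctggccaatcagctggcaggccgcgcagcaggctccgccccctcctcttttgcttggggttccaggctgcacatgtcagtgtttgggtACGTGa
Bnip3 held 5 matches in these bases and Ankrd37 held 4. Of the list 25 of 28 members with a window held 1 or more (89.3%), as did 12 of the 13 that rose (92.3%), and so did 66.9% of all genes. The letters are short and common in promoters rich in C and G, so the share is a description.

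Bnip3, a mitophagy receptor and a known target of hypoxia-inducible factor, had 60.2, 44.99 and 64.03 CPM at 72 h against 3.55, 4.84 and 3.08 CPM at 24 h, a log2 change of 3.87 (SE 0.27, adjusted p = 3.16e-11). Ankrd37 had 8.10, 15.02 and 11.9 CPM at 72 h against 0.501, 0.911 and 1.77 CPM at 24 h, with 3.50 (SE 0.45, adjusted p = 1.74e-06). Ndrg1 had 815, 728 and 811 CPM at 72 h against 121, 128 and 108 CPM at 24 h, with 2.72 (SE 0.18, adjusted p = 1.22e-11). Egln3, the prolyl hydroxylase that is itself induced by the pathway, had 133, 91.8 and 129 CPM at 72 h against 25.2, 27.8 and 23.96 CPM at 24 h, with 2.20 (SE 0.19, adjusted p = 1.73e-09). In these 4 genes every 72 h library lay above every 24 h library, as in 12.9% of all tested genes. The glycolytic enzymes moved less. The hexokinases Hk2 (log2 1.28, SE 0.13, adjusted p = 5.35e-08) and Hk1 (log2 1.21, SE 0.15, adjusted p = 7.44e-07) and the phosphofructokinase Pfkl (log2 0.99, SE 0.13, adjusted p = 1.2e-06) passed, whereas Pkm, Eno1, Ldha and Pgk1 of the later steps did not. Vegfa, the vascular growth factor, did not pass either, with 90.8, 50.1 and 85.2 CPM at 72 h against 76.3, 70.5 and 34.7 CPM at 24 h (log2 0.32, SE 0.28, adjusted p = 0.623), and Car9 stayed below 1 CPM in all 6 libraries.

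Of 25 genes of cholesterol synthesis 10 were higher and 0 lower, with a median log2 change of 0.64 and 24 estimates above 0. Under plain library sizes 4 passed, and with only the 6 libraries in the fit 4. Mvd, the mevalonate diphosphate decarboxylase, had 49.4, 67.9 and 56.2 CPM at 72 h against 24.2, 27.1 and 27.8 CPM at 24 h, a log2 change of 1.13 (SE 0.15, adjusted p = 4.01e-06). Fdft1, squalene synthase, had 143, 206 and 158 CPM at 72 h against 83.5, 91.01 and 103 CPM at 24 h, with 0.87 (SE 0.15, adjusted p = 0.000106). Cyp51, the lanosterol demethylase, had 115, 80.1 and 105 CPM at 72 h against 58.6, 62.95 and 46.5 CPM at 24 h, with 0.84 (SE 0.16, adjusted p = 0.000506). Fatty acid genes were split, 5 of 19 being higher and 1 lower. The higher count was 3 without both libraries that stood apart, with only the 6 libraries in the fit, and without the first 72 h, the third 72 h, the first 24 h or the third 24 h library alone. Dgat2, the last enzyme of triglyceride synthesis, had 100.1, 110.2 and 103 CPM at 72 h against 36.4, 36.5 and 37.8 CPM at 24 h, a log2 change of 1.50 (SE 0.14, adjusted p = 1.05e-08). Me1, malic enzyme, had 150.1, 91.9 and 118 CPM at 72 h against 49.2, 45.4 and 26.97 CPM at 24 h, with 1.57 (SE 0.22, adjusted p = 6.46e-06). Acss2 rose (log2 1.33, SE 0.18, adjusted p = 3.59e-06) and the desaturase gene Fads1 fell (log2 −0.59, SE 0.13, adjusted p = 0.00183). NRF2 targets were higher for 6 of 20 members (3 without both libraries that stood apart, and 3 without the second 72 h, the first 24 h or the second 24 h library alone), among them Hmox1, heme oxygenase, with 241, 376 and 261 CPM at 72 h against 105, 116 and 130.0 CPM at 24 h and a log2 change of 1.33 (SE 0.20, adjusted p = 1.8e-05), and Srxn1 (log2 0.94, SE 0.13, adjusted p = 4.07e-06). Lysosome genes were higher for 7 and lower for 1 of 29 members (4 higher and 0 lower without both libraries, 3 higher with only the 6 libraries in the fit), among them the proton pump subunit Atp6v0d1 at 0.81. Of 24 genes of the amino acid stress response 4 were higher, 2 without the second 72 h or the first 24 h library, and 1 without both libraries. Ddit3, the CHOP factor, had 172, 309 and 186 CPM at 72 h against 71, 75.6 and 51.9 CPM at 24 h, a log2 change of 1.75 (SE 0.25, adjusted p = 9.72e-06). Nupr1 had 96.2, 361 and 123 CPM at 72 h against 48.3, 57.4 and 66.3 CPM at 24 h, in which the second 72 h library set the change (log2 1.75, or 0.93 with an adjusted p of 0.225 without it).

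Some of the genes by which basal cells hold to and build the matrix were lower at 72 h. Of 18 integrin, hemidesmosome and laminin genes 0 were higher and 6 lower, against 2.96% lower over all genes, and none of the 18 estimates was above 0 (median log2 −0.56). Their summed level was 2919 to 3603 CPM at 24 h and 2055 to 2643 CPM at 72 h. Without both libraries that stood apart 2 were lower, and with only the 6 libraries in the fit 1. Itgb5, which pairs with the alpha V integrin, had 30.4, 23.7 and 30.96 CPM at 72 h against 50.5, 47.8 and 53.4 CPM at 24 h, a log2 change of −0.83 (SE 0.12, adjusted p = 1.56e-05). Itgb6 had 9.86, 6.26 and 8.82 CPM at 72 h against 18.9, 13.5 and 16.2 CPM at 24 h, with −0.96 (SE 0.20, adjusted p = 0.000968). Col17a1, a hemidesmosomal collagen, had 488, 434 and 479 CPM at 72 h against 643, 693 and 680.4 CPM at 24 h (log2 −0.53, SE 0.13, adjusted p = 0.00614), with an adjusted p of 0.104 without both libraries. Itga6 had 258, 109 and 200.0 CPM at 72 h against 304, 287 and 168 CPM at 24 h and Itgb1 had 158, 79.6 and 143 CPM at 72 h against 217, 203 and 125 CPM at 24 h, and both overlapped between the times. Among 30 matrix genes 1 was higher and 12 lower (median log2 −0.48), and 0 were higher and 6 lower without both libraries. With only the 6 libraries in the fit 4 were lower, and the higher count was 0 without any 1 library. When 1 library was left out, 6 were lower without the second 72 h or the third 24 h library and 7 without the third 72 h library. Col7a1, the anchoring fibril collagen, had 15.02, 11.9 and 15.5 CPM at 72 h against 45.5, 39.3 and 47.5 CPM at 24 h, a log2 change of −1.64 (SE 0.23, adjusted p = 6.74e-06). Col12a1 had 11.4, 7.22 and 10.8 CPM at 72 h against 28.9, 26.7 and 24.5 CPM at 24 h, with −1.44 (SE 0.30, adjusted p = 0.00113), and the basement membrane collagen Col4a2 had 3.66, 2.72 and 4.20 CPM at 72 h against 8.10, 11.1 and 8.90 CPM at 24 h, with −1.40 (SE 0.28, adjusted p = 0.000684). Thbs1, thrombospondin 1, had 6.89, 2.72 and 7.50 CPM at 72 h against 26.6, 22.4 and 11.3 CPM at 24 h; its log2 change of −1.80 was −1.49 with an adjusted p of 0.0501 without the second 72 h library.

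YAP and TAZ are coactivators that work through TEAD factors. The list of their targets also holds their own genes, Yap1 and Wwtr1, and the kinase gene Lats1. Of its 20 members 5 were lower and 0 higher (median log2 −0.28). Without both libraries that stood apart 2 were lower, as with only the 6 libraries in the fit. Without the second 72 h or the first 24 h library 2 were lower, and 3 without the third 72 h or the second 24 h library. The 250 bases upstream of Axl are shown with the TEAD letters GGAATG in capitals (either strand), because Axl is the member whose fall passed in every alternative and whose window held them.
Axl (chr7:25788734-25788983, minus strand, GRCm38.p6): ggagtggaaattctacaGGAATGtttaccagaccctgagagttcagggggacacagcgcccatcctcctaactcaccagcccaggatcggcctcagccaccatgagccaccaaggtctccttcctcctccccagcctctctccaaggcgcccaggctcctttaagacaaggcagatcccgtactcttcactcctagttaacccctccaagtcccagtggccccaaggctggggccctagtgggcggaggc
Axl, a receptor tyrosine kinase, had 159.5, 129 and 135 CPM at 72 h against 254, 259 and 255 CPM at 24 h, a log2 change of −0.86 (SE 0.15, adjusted p = 0.000138). Arhgef17 had 17.4, 16.3 and 16.6 CPM at 72 h against 27.2, 27.6 and 26.8 CPM at 24 h, with −0.70 (SE 0.16, adjusted p = 0.00396). The letters stood in 9 of 15 windows of the list (60.0%), those of Yap1 and Wwtr1 among them, and in 14.7% of all windows. Ccn2, the connective tissue growth factor, had 10.3, 4.86 and 9.50 CPM at 72 h against 25.03, 22.4 and 16.3 CPM at 24 h; its log2 change of −1.36 was −1.10 (adjusted p = 0.0727) without the second 72 h library and −1.23 (adjusted p = 0.0529) without the first 24 h library.

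A few cell division genes passed as lower, by a small amount. Of 28 cell cycle and mitosis genes 4 were lower and 0 higher, all 28 estimates were below 0, and the median log2 change was −0.41. Their summed level was 2227 to 2350 CPM at 24 h and 1541 to 1932 CPM at 72 h. Cdc20, the activator of the anaphase-promoting complex, had 97.5, 99.6 and 97.8 CPM at 72 h against 129, 141 and 145 CPM at 24 h, a log2 change of −0.49 (SE 0.12, adjusted p = 0.00636), and had an adjusted p of 0.117 with only the 6 libraries in the fit, 0.0961 without a filter on low counts and 0.0803 without both libraries that stood apart. Cdk1 had 114, 111 and 125 CPM at 72 h against 147, 149.9 and 169 CPM at 24 h, a log2 change of −0.41 (SE 0.12, adjusted p = 0.0176). Its adjusted p was 0.0618 without the first 72 h library, 0.0818 without the second and 0.105 without the third 24 h library. Mki67 had 19.02, 9.28 and 17.3 CPM at 72 h against 22.2, 21.7 and 19.05 CPM at 24 h and did not pass (log2 −0.46, SE 0.39, adjusted p = 0.598). The count fell to 1 without the second 72 h library, to 2 without any 1 of the 24 h libraries and to 0 without both libraries that stood apart, with only the 6 libraries in the fit or without a filter. Of 32 DNA replication genes 4 were lower and 0 higher (median log2 −0.27), and 0 without both libraries that stood apart, with only the 6 libraries in the fit, without a filter or without the third 24 h library alone, 1 without the second 72 h library and 2 without the first 72 h or the first 24 h library. Mcm7 had 90.8, 89.03 and 96.7 CPM at 72 h against 118, 109 and 152 CPM at 24 h, with a log2 change of −0.45 (SE 0.11, adjusted p = 0.00487) and of −0.30 (adjusted p = 0.0912) without that library. The D-type cyclin genes Ccnd2 and Ccnd1 fell as well. Ccnd2 had 276, 245 and 214 CPM at 72 h against 388, 369.8 and 359 CPM at 24 h (log2 −0.60, SE 0.14, adjusted p = 0.00345). Ccnd1 had a log2 change of −0.48 (SE 0.11, adjusted p = 0.00469). Both passed when any 1 of the 6 libraries was left out. With only the 6 libraries in the fit the adjusted p was 0.098 for Ccnd2 and 0.137 for Ccnd1. Ccnd2 also had 0.0944 with an offset for gene length, and Ccnd1 had 0.111 without a filter and 0.0526 with plain library sizes. Of the p53 targets 1 of 20 was higher and 3 lower (1 lower without both libraries that stood apart, without the second 72 h library alone or with only the 6 libraries in the fit), with Perp, a desmosomal protein of stratified epithelia, at 2859, 2266 and 2907 CPM at 72 h against 1496, 1515 and 1071 CPM at 24 h (log2 0.98, SE 0.15, adjusted p = 3.68e-05) and Fas at the other end.

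Immediate-early genes were higher for 6 of 20 members and lower for 1, and 3 were higher and 0 lower without both libraries that stood apart. None was lower when any 1 library other than the third 24 h library was left out. Egr3 had 13.2, 7.58 and 11.1 CPM at 72 h against 1.59, 0.786 and 0.393 CPM at 24 h, a log2 change of 3.48 (SE 0.47, adjusted p = 3.31e-06), which was 4.11 without the first 24 h library. Maff had 32.1, 35.7 and 38.5 CPM at 72 h against 16.2, 16.3 and 19.05 CPM at 24 h, with 1.04 (SE 0.22, adjusted p = 0.00151), and Junb rose by 0.71 (SE 0.16, adjusted p = 0.00193), with an adjusted p of 0.102 without both libraries that stood apart. In the list of EGF receptor ligands and feedback inhibitors 8 of 24 were higher and 1 lower (4 higher and 0 lower without both libraries, 5 higher without the first 72 h or the first 24 h library and 4 higher without the third 24 h library). Errfi1, an inhibitor of the receptor, had 25.98, 20.9 and 24.04 CPM at 72 h against 12.7, 12.2 and 9.49 CPM at 24 h, a log2 change of 1.04 (SE 0.19, adjusted p = 0.000248). The ligand Tgfa had 139, 96.5 and 122 CPM at 72 h against 68.95, 74.2 and 49.5 CPM at 24 h, with 0.89 (SE 0.20, adjusted p = 0.00243). The inhibitor Lrig1 had 21.2, 18.6 and 16.4 CPM at 72 h against 31.04, 29.7 and 44.2 CPM at 24 h, with −0.90 (SE 0.21, adjusted p = 0.00347) and an adjusted p of 0.112 without both libraries.

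Cytokine, chemokine and antimicrobial genes went both ways, with 7 of 31 higher and 6 lower. Members of the interleukin 1 family were among those that rose. Il33, a nuclear alarmin, had 138, 94.5 and 132 CPM at 72 h against 33.1, 29.1 and 20.4 CPM at 24 h, a log2 change of 2.14 (SE 0.23, adjusted p = 7.36e-08). Il1rn, the receptor antagonist, had 123, 137 and 120.3 CPM at 72 h against 40.1, 42.1 and 33.1 CPM at 24 h, with 1.72 (SE 0.17, adjusted p = 1.46e-08). Il36g had 107, 85.3 and 94.5 CPM at 72 h against 30.6, 27.4 and 29.98 CPM at 24 h, with 1.70 (SE 0.15, adjusted p = 1.53e-09). Chemokines that attract neutrophils and other leukocytes were among those that fell. Cxcl1 had 64.1, 87.04 and 86.7 CPM at 72 h against 189, 177 and 242 CPM at 24 h, a log2 change of −1.35 (SE 0.25, adjusted p = 0.000291). Cxcl5 had 239, 151 and 244 CPM at 72 h against 589, 584 and 382 CPM at 24 h, with −1.29 (SE 0.26, adjusted p = 0.000858). Ccl20 had 0.623, 1.69 and 0.630 CPM at 72 h against 7.46, 5.26 and 11.1 CPM at 24 h, with −3.06 (SE 0.49, adjusted p = 4.86e-05) and −3.64 without the second 72 h library. Csf3, a granulocyte growth factor, had 34.04, 45.95 and 47.4 CPM at 72 h against 84.97, 90.1 and 86.1 CPM at 24 h, with −1.04 (SE 0.24, adjusted p = 0.00376). Slpi, an antimicrobial protease inhibitor, had 494, 1240.2 and 743 CPM at 72 h against 177, 200.4 and 243 CPM at 24 h, with 2.00 (SE 0.33, adjusted p = 5.51e-05). Among 11 S100 genes 3 were higher. S100a7a had 16.3, 31.9 and 19.6 CPM at 72 h against 4.19, 5.75 and 5.69 CPM at 24 h, with 2.11 (SE 0.37, adjusted p = 0.00013). S100a9, a calprotectin subunit, had 123, 963 and 181 CPM at 72 h against 25.7, 35.6 and 72.3 CPM at 24 h, and its log2 change of 3.25 was 1.78 with an adjusted p of 0.184 without the second 72 h library, 2.97 (0.0612) without the first 24 h library and 3.11 (0.0526) without the second.

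Among the remaining lists few members passed. TGF-beta and BMP genes were higher for 1 and lower for 2 of 19, with Id3, a target of BMP signals, at 23.9, 31.1 and 34.3 CPM at 72 h against 47.2, 48.6 and 72.98 CPM at 24 h (log2 −0.92, SE 0.15, adjusted p = 4.62e-05). With only the 6 libraries in the fit Id3 did not pass (adjusted p = 0.115). Wnt genes were lower for 3 of 28, among them the secreted Dkk3 (log2 −1.09, SE 0.22, adjusted p = 0.000849) and the receptor Fzd2 (log2 −0.87, SE 0.18, adjusted p = 0.00092). Notch genes were higher for 2 and lower for 2 of 13 members, but 0 were higher and 1 lower without both libraries that stood apart. None was higher without the first 72 h or the third 24 h library and 1 without the third 72 h library. Of the lower members 0 passed without the second 72 h library, 1 without the first or the second 24 h library and 4 without the third 24 h library. Interferon-stimulated genes were lower for 2 of 16, MHC class I genes for 1 of 9, and ribosome biogenesis genes for 2 of 24. These counts were 0, 2 and 1 without both libraries that stood apart. The interferon count was 0 without the first 72 h library and 1 without the third 72 h, the first 24 h or the third 24 h library. The MHC count was 2 without the first or the second 72 h library. The ribosome biogenesis count was 0 without the first 72 h, the second 24 h or the third 24 h library and 1 without the first 24 h library. FOXO targets were higher for 1 and lower for 2 of 16 genes, the higher count being 0 without the first 72 h or the third 24 h library and the lower count being 1 without the first 72 h or the second 24 h library. Endoplasmic reticulum chaperones were higher for 3 of 18 and clock genes for 4 of 16, and without both libraries that stood apart 1 and 2 were higher. Without the third 24 h library alone 0 chaperones were higher. Of the clock genes 1 was higher without the first or the third 72 h or the second or the third 24 h library, and 2 without the first 24 h library. Genes of the epithelial-mesenchymal transition were higher for 2 (the epithelial splicing factors Esrp2 and Esrp1) and lower for 1 of 14 (Sparc). Esrp1 did not pass without the first 72 h library (adjusted p = 0.118), without the third 24 h library (0.106), with plain library sizes (0.229) or with only the 6 libraries in the fit (0.118), and 2 genes were lower without the first 72 h library. Sparc did not pass with only the 6 libraries in the fit (adjusted p = 0.12) or without a filter on low counts (0.0557). Of the 12 heat shock, 9 metallothionein and 16 replication-dependent histone genes 0 passed.

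The labelled cell type could be read from its markers. The 10 keratinocyte markers summed to 37820 to 44540 CPM at 72 h and 37280 to 46750 CPM at 24 h, with 1 higher (Perp) and 1 lower (Col17a1), the latter not without both libraries that stood apart. Markers of fibroblasts summed to 8.32 to 17.2 CPM at 72 h and 7.33 to 18.5 CPM at 24 h, most of it from Twist2, while Col3a1 was at 0 in 4 of the 6 libraries and at most 3.04 CPM. Melanocyte markers summed to at most 4.14 CPM and endothelial markers to at most 6.48 CPM. Immune markers summed to 73.5 to 179 CPM, nearly all from Cd68, a lysosomal gene that keratinocytes also express, with Lyz2 at 0 in 4 libraries. None of these 16 markers passed the test. Krt20, listed for Merkel cells, was higher (3.11, 4.64 and 3.31 CPM at 72 h against 1.46, 1.12 and 1.57 CPM at 24 h; log2 1.41, adjusted p = 0.032) and lost its call without the second 72 h library (adjusted p = 0.117), without the third 72 h library (0.0555) and without any 1 of the 24 h libraries (0.0607 to 0.14), while Sox2, another gene of that list, had 36.2, 20.2 and 31.9 CPM at 72 h against 40.3, 35.2 and 24.4 CPM at 24 h. Fewer cells of a type and less RNA per cell cannot be told apart in these bulk libraries.

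The effect of culture time was then compared with that in 3 other settings by tests of the difference itself. All 3 tests use the same Rescue LCM libraries, so their results are given side by side and not against each other. The time effect differed from that of PKP4-KO cells in LCM for 794 genes (5.25%, with 394 more positive and 400 more negative in Rescue), from that of WT cells in LCM for 591 (3.91%, with 2.6% more positive and 1.31% more negative), and from that of Rescue cells in HCM for 1896 (12.5%, 938 and 958). The time effects on their own counted 3952 genes in PKP4-KO cells (26.1%, with 12.4% higher and 13.7% lower), 1505 in WT cells (9.96%, 5.29% higher and 4.66% lower) and 3676 in Rescue cells in HCM (24.3%, 13.6% higher and 10.7% lower).

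**Figure D3:**
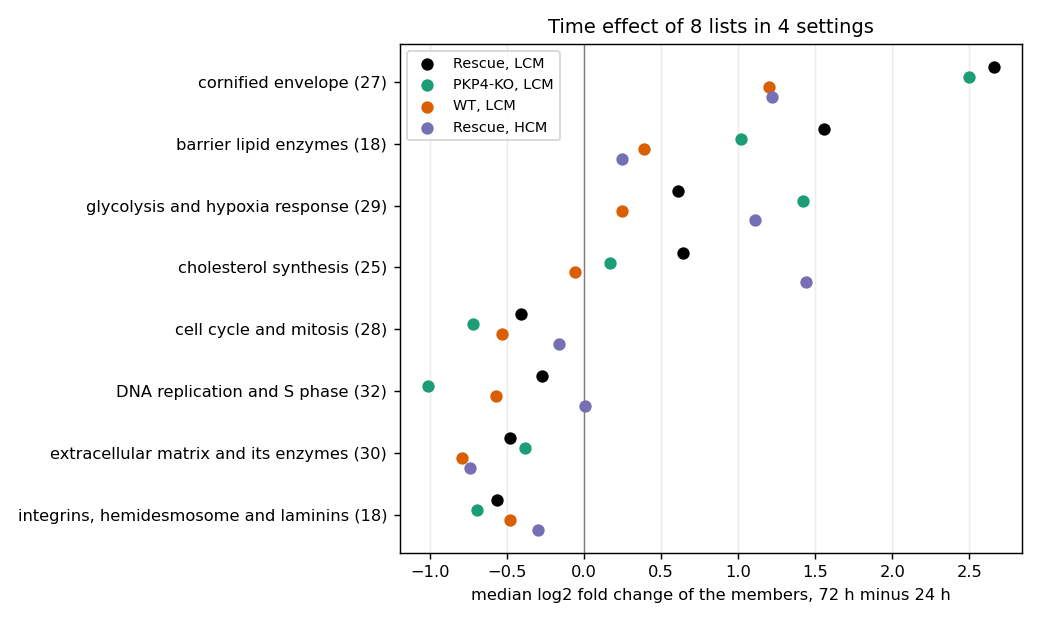
Median log2 fold change (72 h minus 24 h, horizontal axis) over the tested members of 8 lists (number tested in parentheses) in Rescue cells in LCM and in the 3 other settings, each from 3 libraries a time. Cornified envelope genes rise in all 4, with medians of 2.66 in Rescue, 2.50 in PKP4-KO and 1.20 in WT cells in LCM and 1.22 in Rescue cells in HCM, and cholesterol synthesis rises most in HCM (1.44).

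Cornified envelope genes were higher at 72 h for 23 of 27 members in PKP4-KO, 14 in WT and 14 in HCM Rescue cells, and lower for 0, 0 and 3. The difference itself was positive for 5 members against WT and for 9 against HCM, and it was negative for 2 against PKP4-KO and 1 against HCM (background 2.6%, 6.21%, 2.65% and 6.34%). Tgm1, named for its large difference, is an example of opposite directions in the media, which was not typical of the list. It rose in LCM, whereas in HCM it had 74.5, 75.4 and 66.98 CPM at 72 h against 297, 287 and 226 CPM at 24 h, and the difference of the time effects was 3.81 (adjusted p = 4.21e-10). Alox12b had 24.2, 24.5 and 22.3 CPM at 72 h against 51.1, 61.8 and 36.8 CPM at 24 h in HCM (difference 4.22, adjusted p = 1.55e-08). Barrier lipid genes differed for 9 of 18 members from WT and for 10 from HCM, all toward a larger rise in Rescue LCM. In HCM on its own 6 of these genes were higher at 72 h and 2 lower. Degs2 was low in WT cells, with 0.0502, 0.0396 and 0.136 CPM at 72 h against 0.264, 0.350 and 0.312 CPM at 24 h, and its difference of 6.45 (adjusted p = 0.000164) was the largest of the named genes. Klk6 had 0.752, 0.871 and 0.136 CPM at 72 h against 1.64, 0.350 and 0.937 CPM at 24 h in WT cells (difference 4.95, adjusted p = 0.000191) and 202, 158 and 207 CPM at 72 h against 8.14, 9.78 and 6.26 CPM at 24 h in HCM, where it rose as well. In the kallikrein stretch 6 of 11 genes differed from WT, 6 from HCM and 0 from PKP4-KO, all toward a larger rise in Rescue LCM.

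Krt1 and Krt10 differed between the genotypes. In PKP4-KO cells Krt1 had 476, 435 and 386 CPM at 72 h against 38.6, 19.2 and 13.8 CPM at 24 h, and in WT cells 6.72, 5.98 and 8.55 CPM at 72 h against 0.846, 0.642 and 0.677 CPM at 24 h, while Rescue cells stayed at 3.09 to 3.99 CPM at 72 h. The difference against PKP4-KO was −5.49 (adjusted p = 1.56e-05) and against WT −4.59 (adjusted p = 0.000381). Without the third 24 h Rescue library, which had 21.4 CPM, they were −3.69 and −2.79 and still passed. Krt10 had 1299.7, 542 and 609 CPM at 72 h against 41.7, 25.6 and 22.01 CPM at 24 h in PKP4-KO cells, a difference of −4.95 (adjusted p = 2.46e-06) that became −3.98 without the same library. Selenbp1, a selenium-binding protein, had 317, 296 and 224 CPM at 72 h against 2.89, 1.91 and 1.59 CPM at 24 h in PKP4-KO cells and 8.72, 9.50 and 11.1 CPM at 72 h against 1.64, 3.02 and 3.67 CPM at 24 h in Rescue cells, a difference of −5.23 (adjusted p = 4.76e-08). Krt15, a keratin of basal and follicular progenitors, had 73.2, 46.2 and 63.8 CPM at 72 h against 6.71, 6.30 and 8.07 CPM at 24 h in WT cells and 2762, 1699 and 1711 CPM at 72 h against 674, 532 and 328 CPM at 24 h in PKP4-KO cells, against 32.2, 29.4 and 29.8 CPM at 72 h against 27.4, 27.8 and 48.3 CPM at 24 h in Rescue cells.

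**Figure D4:**
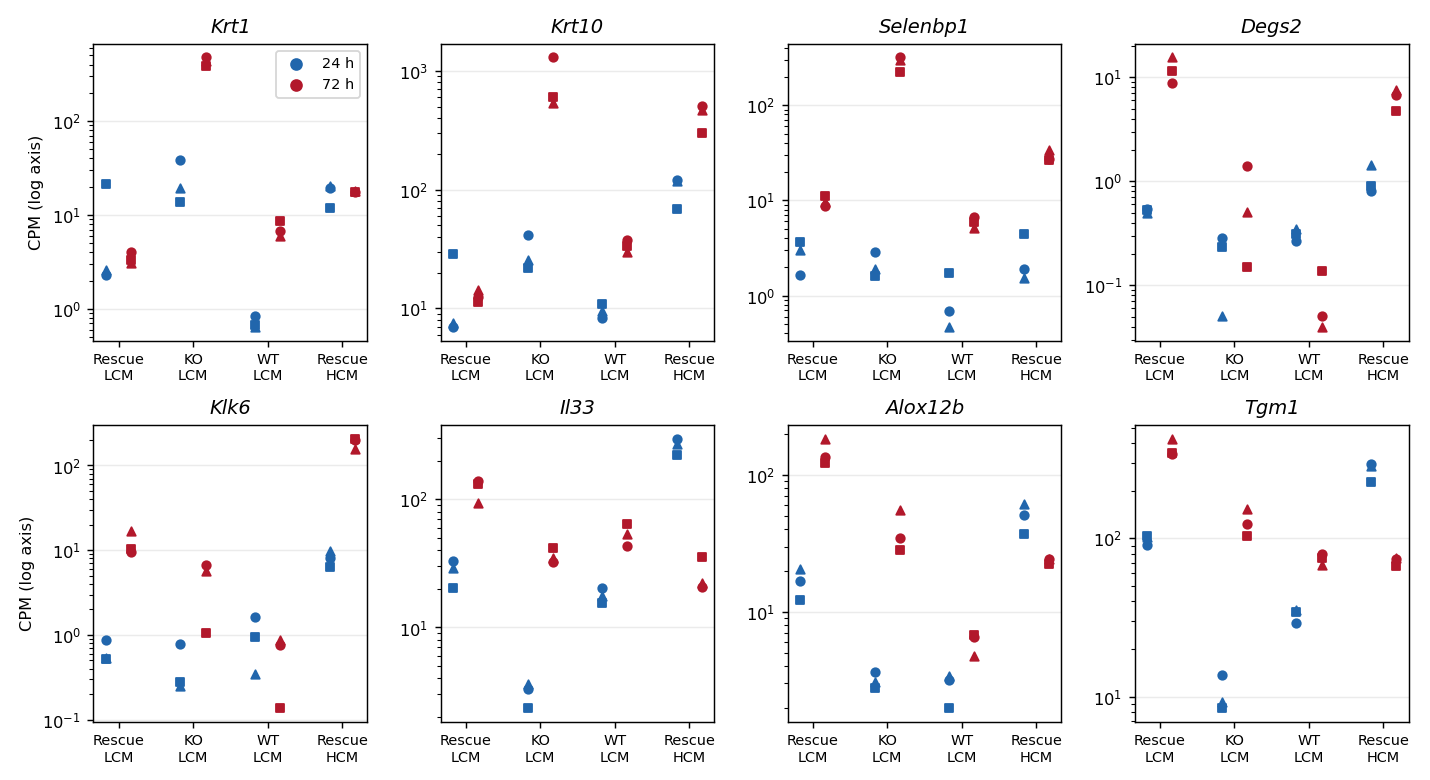
CPM on log axes of 8 genes whose time effect differed, in Rescue, PKP4-KO and WT cells in LCM and Rescue cells in HCM (blue 24 h, red 72 h, marker shapes as library numbers 1 to 3, circle, triangle and square). Krt1 and Selenbp1 exceed 200 CPM at 72 h only among the PKP4-KO libraries shown, and Il33, Alox12b and Tgm1 rise with time in Rescue LCM but fall in Rescue HCM.

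Genes of glycolysis and hypoxia rose less in Rescue than in PKP4-KO cells, the difference being negative for 11 of 29 members and positive for 0 (8 without both libraries that stood apart, background 2.65%), and more than in WT cells, where it was positive for 6 and negative for 0 (background 2.6%). Egln3 differed by −3.51 from PKP4-KO and by 1.04 from WT, and Ndrg1 by −2.33 and 1.82. DNA replication genes fell less than in PKP4-KO cells, with 13 of 32 differences positive and 0 negative (background 2.61%; 5 positive with only the groups compared in the fit). Cytokine genes had 10 of 31 negative differences and 0 positive against PKP4-KO, and 10 positive and 2 negative against HCM. The direction of Il33 differed between the media. In HCM it had 20.7, 22.2 and 35.7 CPM at 72 h against 298, 271 and 223 CPM at 24 h, a difference of 5.48 (adjusted p = 1.03e-11), the reverse of its rise in LCM. Against HCM the difference was also positive for 13 of 23 keratinocyte transcription factors (negative for 3) and 8 of 12 desmosomal genes (negative for 1), and negative for 8 of 25 cholesterol genes (positive for 0) and 9 of 29 glycolysis and hypoxia genes (positive for 2) (background 6.21% and 6.34%).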

How the data were processed

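Poly(A) RNA of the 36 libraries was sequenced in pairs from strand-specific libraries by the authors. According to the study's methods and processing notes the reads were aligned with HISAT2 2.1.0 to the mouse genome (mm39) extended by the GFP-PKP4 sequence, handled with SAMtools 1.10 and counted per gene with featureCounts 2.0.0 on the Ensembl annotation of GRCm39. The strand setting of the counting is not given in the sources used here, so a gene and its antisense partner cannot be told apart. The deposited values are raw counts per gene and library as the authors' counter gave them, with a gene length column, and all columns matched a sample label (0 were left over). The counts were not normalised before deposit.

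From these counts genes were kept by edgeR's filterByExpr over the 12 groups (15114 of 55358), scaled by TMM and fitted with 1 quasi-likelihood model over the 12 groups and 36 libraries (edgeR 4.0.16 in R 4.3.3, 24 residual degrees of freedom). All adjusted p-values are Benjamini-Hochberg values over the 15114 genes unless another tool is named, and genes below 0.05 were called. Standard errors were taken as the absolute log2 fold change over the root of F. A gene's fold change is 72 h minus 24 h. A difference of the time effect is the time effect in Rescue LCM minus that in the other setting, tested as a contrast of the same model. The test recovered known changes in simulated counts before use. The simulation gave all genes the same spread and had no libraries that stood apart. It therefore does not show how the test does with the length-related spread seen here. The libraries that share a group differed by 7.48 to 292 in chi-square per gene, far above the 1 that sampling alone gives, so none was merged.

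The 46 gene lists and the members of the comparison were chosen with earlier results of these data known. Genes named in the text were the 12 largest rises and 12 largest falls at 5 CPM or more without overlap of libraries, up to 4 called members per list with the largest change at 1 CPM or more, genes that define a list (picked after their values had been seen), the kallikreins, and the 8 largest differences per setting. Alternatives were DESeq2 1.42.0, plain library sizes, no filter, a floor of 10 counts for each library, a fit of the compared groups alone, a replicate block and each Rescue LCM library left out. After the data had been seen, a fit without both libraries that stood apart, an offset for gene length and the omission of each library of the other settings were added. Promoter windows came from RefSeq (GRCm38.p6), matched by Ensembl gene ID or else by gene symbol, and gene positions from GENCODE on GRCm39. Mouse and human PKP4 reads were taken as the deposited table separates them. A few genes and 1 gene list that these rules name are not reported here.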

Additional observations from a re-analysis of the deposited data

Results flagged for a closer look

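The time effect of Rescue cells in LCM differed from that of another setting, by the test of the difference itself (edgeR, Benjamini-Hochberg over all genes), for the following genes with the largest differences, given on the log2 scale. The differences share the Rescue LCM libraries.

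Against PKP4-KO cells in LCM, Krt1 differed by −5.49, Selenbp1 by −5.23 and Krt10 by −4.95, with the levels given in the report. Pbp2, a phosphatidylethanolamine-binding protein, differed by 4.89. It had 5.31, 4.79 and 4.20 CPM at 72 h against 8.06, 6.21 and 5.69 CPM at 24 h in Rescue cells and 0, 0.252 and 0.05 CPM at 72 h against 3.52, 2.36 and 5.34 CPM at 24 h in PKP4-KO cells, and without the second PKP4-KO 72 h library the difference was 6.30. Myh7b, a myosin heavy chain, differed by −4.50, and by −3.45 without the first PKP4-KO 72 h library. Its levels were 5.17, 5.23 and 5.30 CPM at 72 h against 6.24, 7.45 and 5.83 CPM at 24 h in Rescue and 14.7, 3.52 and 3.45 CPM at 72 h against 0.282, 0.452 and 0.421 CPM at 24 h in PKP4-KO cells. Gpr15lg, a chemokine-like ligand of squamous epithelia, differed by −3.91, with 12.7, 22.2 and 14.5 CPM at 72 h against 1.41, 1.95 and 6.35 CPM at 24 h in Rescue and 337, 406 and 222 CPM at 72 h against 8.25, 3.26 and 1.08 CPM at 24 h in PKP4-KO cells. The difference was −3.02 without the third Rescue 24 h library and −4.83 without the first PKP4-KO 24 h library, and its adjusted p was 0.0801 with only the 4 groups in the fit. Serpinb3a, a protease inhibitor of squamous cells, differed by −3.78, and by −4.69 without the first PKP4-KO 24 h library. It rose in both genotypes, with 29.5, 15.2 and 24.8 CPM at 72 h against 5.78, 6.08 and 6.48 CPM at 24 h in Rescue and 92.1, 82.6 and 84 CPM at 72 h against 3.45, 0.653 and 1.08 CPM at 24 h in PKP4-KO cells. Ndufa4l2 differed by −3.62, with 138, 244 and 81.4 CPM at 72 h against 2.04, 0.502 and 0.843 CPM at 24 h in PKP4-KO cells. Without the third Rescue 24 h library the difference was −2.57 with an adjusted p of 0.103, without the second Rescue 72 h library −4.47 and without the first PKP4-KO 24 h library −4.28.

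Against WT cells in LCM, Degs2 differed by 6.45, Klk6 by 4.95, Krt1 by −4.59 and Krt15 by −3.29. The value for Degs2 was 7.11 without the third WT 72 h library and that for Klk6 4.36 without the first WT 24 h library. Dhrs9, a retinol dehydrogenase, differed by 3.72, with 28.1, 14.1 and 18.5 CPM at 72 h against 2.28, 2.94 and 1.11 CPM at 24 h in Rescue and 2.41, 3.13 and 2.46 CPM at 72 h against 3.38, 4.20 and 3.64 CPM at 24 h in WT cells. Ndrg2 differed by 4.09 and Aldoc, a glycolytic aldolase, by 3.53. Both rest on the first WT 24 h library. Ndrg2 had 1.50, 1.15 and 1.41 CPM at 72 h against 10.6, 1.28 and 0.573 CPM at 24 h in WT cells and a difference of 1.92 with an adjusted p of 0.229 without that library, and Aldoc had 1.45, 1.82 and 0.909 CPM at 72 h against 15.3, 2.16 and 0.677 CPM at 24 h and a difference of 1.42 with an adjusted p of 0.171 without it.

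Against Rescue cells in HCM, Il33 differed by 5.48, Alox12b by 4.22 and Tgm1 by 3.81. Pla2g4d differed by 5.46, with 0.788, 0.428 and 0.523 CPM at 72 h against 1.04, 1.22 and 1.24 CPM at 24 h in HCM. The transcription factor gene Tcf23 differed by 4.35, with 24.4, 18.7 and 16.7 CPM at 72 h against 1.82, 2.52 and 0.982 CPM at 24 h in LCM and 1.02, 1.44 and 1.33 CPM at 72 h against 2.25, 2.75 and 2.04 CPM at 24 h in HCM. Lce1g, a late cornified envelope gene, differed by −4.35. It rose in both media, with 7.33, 8.62 and 5.98 CPM at 72 h against 3.69, 2.65 and 3.21 CPM at 24 h in LCM and 246, 221 and 172 CPM at 72 h against 3.98, 6.03 and 3.68 CPM at 24 h in HCM. Gpnmb, a membrane glycoprotein, differed by −4.34, with 8.43, 9.57 and 6.51 CPM at 72 h against 2.87, 3.85 and 3.27 CPM at 24 h in LCM and 71.4, 67.1 and 24.9 CPM at 72 h against 0.924, 1.06 and 1.29 CPM at 24 h in HCM. Nppb, the brain natriuretic peptide gene, differed by 3.77, with 6.96, 14.7 and 8.87 CPM at 72 h against 6.42, 7.70 and 7.004 CPM at 24 h in LCM and 0.741, 0.467 and 1.09 CPM at 72 h against 7.22, 5.92 and 8.60 CPM at 24 h in HCM. No single library moved the 8 differences against HCM by more than 1.5 times.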

How the results depend on the processing

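The 1482 genes called for culture time were 738 with only the groups compared in the fit and 869 without both libraries that stood apart, and 1138 to 1259 when 1 library was left out. Of the calls 69.8% were higher, which became 85.9%, 81.6% and, without a filter, 81.1%, and 62.3% with plain library sizes, under which the median of all genes was −0.15. The 794 differences from PKP4-KO were 415 without a filter and 229 with only the groups compared (36.7% positive against 49.6%), and 493 (without the third PKP4-KO 24 h library) to 924 (without the first) when 1 library was left out; plain library sizes made 72.3% positive, at a median of 0.28. The 591 differences from WT were 905 by DESeq2, 341 without both libraries and 403 to 541 without 1 library, and 77.0% against 66.5% were positive with plain library sizes, at a median of 0.12. The 1896 differences from HCM were 1428 to 1927 without 1 library and stayed within 1.5 times in the other fits; plain library sizes made 39.2% positive against 49.5%, at a median of −0.17.

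The replicate numbers did not pair the samples (correlations of same-numbered deviations of 0.56, −0.57 and −0.50, and 0.77 between the 2 libraries that stood apart), and with the replicate block 1447, 759, 573 and 1835 genes were called in these 4 comparisons, 1419, 740, 555 and 1810 of them as before. Of the kallikreins 9 were higher under the block, where Klk8 had an adjusted p of 0.0541, and 0 of these genes were lower. Under the block the log2 changes of Pkp4 and GFP-PKP4 were −0.0476 and 0.7935.

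The sign of several uncalled genes changed. Pkp4 ranged from −0.1394 to 0.0689 in the fits without 1 library (0.13 without both libraries that stood apart) and its mean level from −0.1413 to 0.0664, with a positive sign without the second 72 h (0.0664) or the third 24 h library (0.0207). GFP-PKP4 ranged from 0.5481 to 1.0576. Krt1 ranged from −1.77 to 0.49 (0.57 without both libraries), Krt10 from −0.50 to 0.80 (0.72), Trp63 from −0.28 to 0.20 (0.015 with the offset for gene length), Krtdap from −0.27 to 1.49, Arhgap23 from −0.064 to 0.144 (−0.071 with plain library sizes) and Rock1 from −0.81 to 0.16, and Krt14 was at −0.0078 with plain library sizes. Of 204 calls of named genes 148 passed without each library and 120 in every alternative. The cause of these changes was not tested. Depth limits genes near 1 CPM, where a library holds only a small number of counts.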
